A study of Mus musculus with 12 samples.

Results

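The genes that mark oligodendrocyte precursors and set the oligodendrocyte lineage were followed through the chromatin of 3 sorted cell populations of the mouse forebrain. They were Olig1, Olig2, Sox10, Sox6, Pdgfra, Cspg4, Ptprz1, Gpr17, Vcan and Lhfpl3. Every peak whose nearest gene in the deposited tables was one of these 10 genes was taken, which gave 256 of 281974 peaks: 193 of 82577 in Olig2+ nuclei, 34 of 107627 in NeuN+ nuclei and 29 of 91770 in microglia. No filter on low values was applied, so each of the 256 peaks was tested. A peak within 1000 bp of the nearest annotated start site is called a start-site peak, and any other peak is called distal.

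Oligodendrocyte precursors are dividing cells that persist in the adult brain and give rise to myelinating oligodendrocytes. The basic helix-loop-helix proteins OLIG1 and OLIG2 and the HMG-box protein SOX10 set the lineage and stay on in mature cells, whereas SOX6 is a SOX protein of the precursor that is lost as cells differentiate. The receptor PDGFRA, the proteoglycan NG2 (encoded by Cspg4), the receptor phosphatase PTPRZ1 and the matrix proteoglycan versican (Vcan) mark the precursor surface and matrix, and the receptor GPR17 marks cells committed to differentiate.

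ATAC-seq, which uses a transposase to cut and tag open DNA, was run on C57BL/6 mice aged 4 months that were either wild type (WT) or SgshKO. Sgsh encodes a lysosomal enzyme that removes sulfate during the breakdown of heparan sulfate. Each sort had 2 WT and 2 SgshKO libraries, 12 in all. Olig2+ nuclei were sorted as positive for OLIG2 and negative for NEUN and PU.1, and NeuN+ nuclei as positive for NEUN and negative for OLIG2 and PU.1, both after light fixation. Microglia were sorted as unfixed, living cells positive for CD11b and CX3CR1 with low CD45. The OLIG2 gate holds precursors together with mature oligodendrocytes, and OLIG2 was itself the sorting marker, so the presence of Olig2 peaks in this sort is not a result. The labels do not give the allele behind SgshKO, the number of animals in a library, or whether the 2 libraries of a group came from separate animals, so p-values measure the spread between these libraries, which may be technical.

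Library totals were 15044194 to 19555924 tags in Olig2+ nuclei, 14326703 to 17706971 in NeuN+ nuclei and 10771659 to 11804222 in microglia. In both nuclei sorts each SgshKO library was shallower than each WT library. Values are normalized tags per peak, scaled to 10000000 tags per library. The share of tags inside peaks was 30.9% to 31.8% in all 4 Olig2+ libraries, but in NeuN+ nuclei it was 26.7% and 25.9% in WT against 21.5% and 21.2% in SgshKO. In microglia it was 55.8% and 48.7% in WT against 67.4% and 53.7% in SgshKO. Markers of each sorted class had start-site peaks in their own sort: all 10 mature oligodendrocyte markers in Olig2+ nuclei, all 10 neuronal markers in NeuN+ nuclei and 9 of 10 microglial markers in microglia. Markers of other classes were not all without one. In microglia 6 of 10 neuronal, 6 of 10 mature oligodendrocyte and 4 of 9 astrocyte markers lacked a start-site peak. In NeuN+ nuclei 6 of 10 mature oligodendrocyte markers lacked one, and in Olig2+ nuclei 5 of 10 neuronal markers. Accessibility of the Sgsh start site does not show whether the gene product is lost. It was 65.9 and 74.2 normalized tags in WT and 60.9 and 69.1 in SgshKO Olig2+ nuclei, 34.6 and 22.6 against 9.07 and 13.3 in NeuN+ nuclei, and 229 and 192 against 364 and 253 in microglia.

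The start-site sequences of 4 of these genes are shown because the results turn on them. Those of Sox6 and Ptprz1 lie at the start-site peaks that opened in SgshKO Olig2+ nuclei, that of Lhfpl3 at a peak that differed between the sorts, and that of Olig2 at a strong peak that did not pass the test. Each is the 250 bases before a RefSeq start on GRCm38.p6, written 5′ to 3′ on the strand of the gene: Sox6 at chr7:115824711-115824960 on the minus strand, Ptprz1 at chr6:22875252-22875501, Lhfpl3 at chr5:22745804-22746053 and Olig2 at chr16:91225300-91225549, the last 3 on the plus strand. Capitals mark CANNTG, the E-box letters that basic helix-loop-helix proteins such as OLIG2 recognise.
Sox6: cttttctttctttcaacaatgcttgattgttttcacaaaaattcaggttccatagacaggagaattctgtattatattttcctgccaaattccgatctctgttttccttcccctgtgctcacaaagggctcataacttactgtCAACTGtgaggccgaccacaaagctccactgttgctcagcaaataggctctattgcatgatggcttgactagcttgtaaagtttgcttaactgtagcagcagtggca
Ptprz1: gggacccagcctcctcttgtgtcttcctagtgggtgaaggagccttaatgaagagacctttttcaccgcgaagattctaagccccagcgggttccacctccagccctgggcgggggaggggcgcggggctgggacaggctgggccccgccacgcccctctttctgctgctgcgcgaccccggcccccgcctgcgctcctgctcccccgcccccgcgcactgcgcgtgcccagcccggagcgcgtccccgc
Lhfpl3: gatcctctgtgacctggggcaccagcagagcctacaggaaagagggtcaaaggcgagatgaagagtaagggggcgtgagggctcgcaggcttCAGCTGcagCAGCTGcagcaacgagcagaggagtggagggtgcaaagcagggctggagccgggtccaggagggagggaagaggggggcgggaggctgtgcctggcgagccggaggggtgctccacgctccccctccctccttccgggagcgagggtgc
Olig2: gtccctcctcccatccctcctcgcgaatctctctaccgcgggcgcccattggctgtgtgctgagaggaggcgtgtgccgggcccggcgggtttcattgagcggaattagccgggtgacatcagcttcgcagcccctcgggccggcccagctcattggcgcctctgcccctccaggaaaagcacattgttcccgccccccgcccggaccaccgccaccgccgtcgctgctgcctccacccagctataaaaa

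These windows differed in composition. The Sox6 window had 41.6% G and C, against 71.6% for Ptprz1, 67.2% for Lhfpl3 and 66.8% for Olig2. CANNTG, which reads the same on both strands, occurred once in the Sox6 window, 2 times in that of Lhfpl3 (both as its form CAGCTG) and in neither of the others. Among all 32851 RefSeq windows of this length, 66.2% held CANNTG and 13.0% held CAGCTG. The SOX core letters ACAAAG, searched on both strands, occurred 2 times in the Sox6 window and were found in 16.5% of all windows, and ACAATG occurred once in the Sox6 window and once in that of Olig2, against 10.7% of all windows. These matches are descriptions of the letters and not of binding. RefSeq windows were found for 7 of the 10 genes, 12 windows in all.

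Where peaks of the precursor and lineage genes changed in SgshKO Olig2+ nuclei, they mostly opened. Sox6 and Ptprz1 were higher at 4 of 9 and 4 of 6 peaks, start sites included, while the calls at Olig1 and Olig2 were all distal. None of the 21 Sox10 peaks passed the test. Of the 193 peaks, 25 were higher and 5 lower in SgshKO (limma, Benjamini-Hochberg adjusted p under 0.05 over the whole table). Of all Olig2+ peaks, 19.8% were called, 8.17% higher and 11.7% lower. The members' shares were 13.0% higher and 2.59% lower, with a median log2 change of 0.23 against -0.07 over all peaks. Both SgshKO libraries lay above both WT libraries at 93 of the 193 peaks (26.4% of all peaks) and below both at 32 (34.9% of all peaks). The balance of calls moved with the scaling: quantile normalization gave 30 higher and 2 lower (8.89% and 7.81% of all peaks), edgeR on recovered reads 42 and 3 (11.6% and 10.0%), and median-of-ratios scaling 37 and 2 (10.7% and 9.45%). Without the first or the second WT library the member calls fell to 12 or 8, all higher, while those over the whole table fell from 16370 to 6165 (3124 higher) or 6090 (3207 higher), and DESeq2 called 5, all higher (2.64% of all peaks higher and 1.7% lower).

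Start-site and distal peaks were counted apart. Of 21 start-site peaks 3 were higher and 1 lower, where 20.3% of all start-site peaks were called, 12.7% higher and 7.56% lower. Among 172 distal peaks 22 were higher and 4 lower, where 19.7% of all distal peaks were called, 6.7% higher and 13.0% lower. The members' distal calls were mostly increases in a table whose distal calls were mostly decreases. Splitting by strength, 12 of 85 peaks below the table's median of 14.965 tags and 13 of 108 at or above it were higher, against 5.6% and 10.7% of all peaks in those ranges. In the same ranges 2 and 3 member peaks were lower, against 9.59% and 13.7% of all peaks. Peaks were merged over both genotypes, and nothing at hand says in which libraries each was first found, so a weak peak found through 1 genotype alone had to differ.

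**Figure D1:**
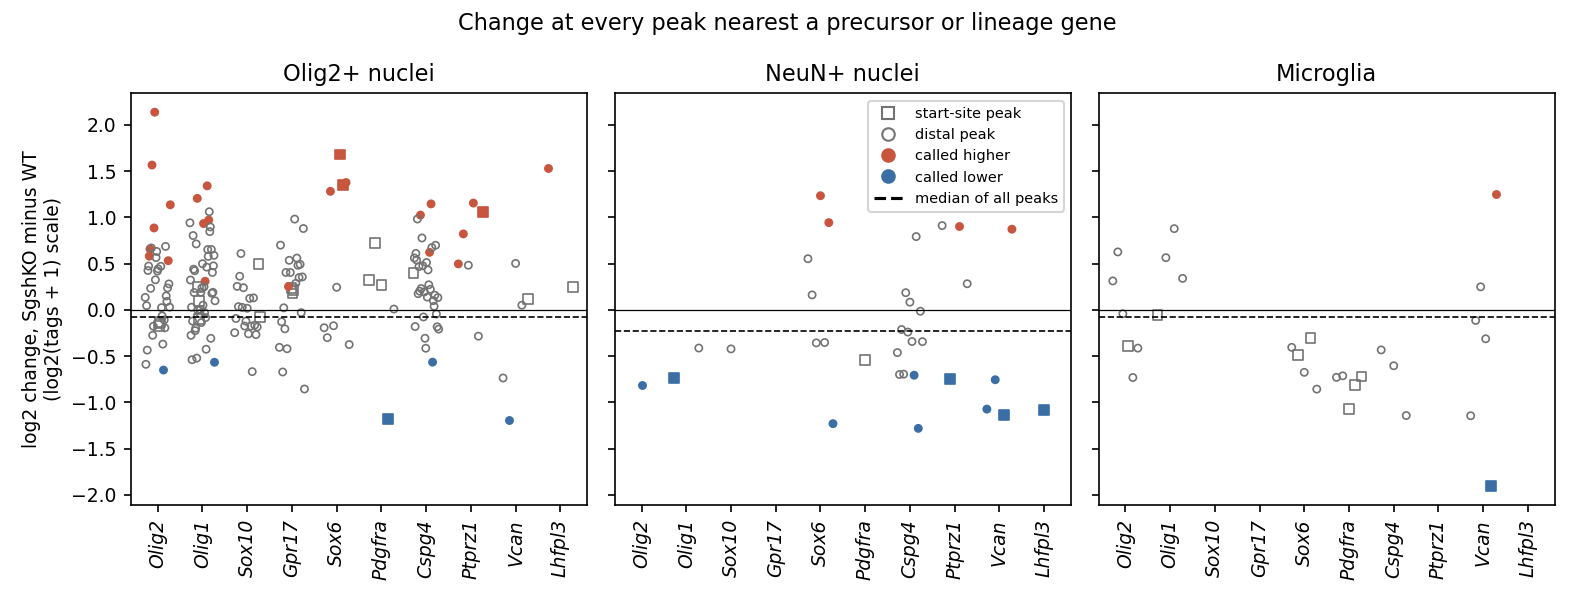
Log2 change (SgshKO minus WT, log2(tags + 1) scale) of every peak nearest to each of the 10 genes in the 3 sorts; squares are start-site peaks, circles distal peaks, filled symbols those called by limma, and the dashed line the median of all peaks. In Olig2+ nuclei 25 of the 30 filled symbols lie above 0, in NeuN+ nuclei 4 of 14, and in microglia 1 of 2.

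Markers of other cell classes were measured in the same Olig2+ libraries. Peaks nearest to the 10 mature oligodendrocyte markers, among them the myelin gene Mobp, went the other way: 131 of 411 were lower and 15 higher, with a median log2 change of -0.41. Their summed signal was 17002 and 16987 normalized tags in WT and 12579 and 12713 in SgshKO. The start-site peak of Mobp had 236 and 219 tags in WT and 129 and 104 in SgshKO. Summed over all 193 precursor and lineage peaks, the signal was 5923 and 5890 tags in WT and 6518 and 6668 in SgshKO. Both sums were separate between the genotypes, in opposite directions. Other lists of lineage genes, counted below, did not rise with the members. Sums were 9185 and 9356 tags in WT against 8829 and 9019 in SgshKO for 18 further lineage regulators. They were 5693 and 5622 against 5281 and 5594 for 17 surface, matrix and ligand genes. For 9 genes of committed precursors they were 4028 and 4038 against 3524 and 3575. Astrocyte markers, of which 6 of 9 had no start-site peak, summed to 1343 and 1391 tags in WT and 1403 and 1434 in SgshKO, with 7 of 49 peaks higher and 3 lower. For neuronal markers, 5 of 10 without a start-site peak, the sums were 372 and 394 against 388 and 396, with 3 of 21 peaks higher and 5 lower. Microglial markers, 9 of 10 without a start-site peak, summed to 314 and 328 against 324 and 352, and endothelial markers, 6 of 7 without one, to 683 and 666 against 649 and 720. The astrocyte sums were separate between the genotypes, and the neuronal, microglial and endothelial sums overlapped. The part of these in the precursor and lineage result was not tested, and in a bulk sort fewer cells of a type and less open chromatin per cell cannot be told apart.

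The number of peaks per gene varied widely. In Olig2+ nuclei Olig1 held 49 peaks, Olig2 38, Cspg4 34, Gpr17 24 and Sox10 21, more than 95.8% to 99.3% of the 16193 genes with a peak. Sox6 had 9, Ptprz1 6, Pdgfra and Vcan 5 each and Lhfpl3 2, against a median of 2 over genes. In NeuN+ nuclei Cspg4 had 13 peaks, 10 of them overlapping an Olig2+ peak, and Sox6 had 7, 1 of them overlapping, whereas Olig2 and Sox10 had 1 each and Gpr17 none. In microglia Olig2 and Vcan had 6 peaks each, Pdgfra and Sox6 5, Olig1 4 and Cspg4 3, and Ptprz1, Sox10, Gpr17 and Lhfpl3 had none. Peaks were called separately in each table, so these numbers also follow the depth and enrichment of each sort.

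Start-site levels in Olig2+ nuclei fell into 2 tiers. Taking the strongest start-site peak of each gene per 100 bp of its length, the median of the 4 libraries was 121 tags for Olig1, 103 for Sox10, 90.6 for Olig2 and 61.0 for Gpr17. All other genes lay far below, from 11.0 for Sox6 and 9.74 for Pdgfra through 7.53 for Cspg4, 7.15 for Lhfpl3 and 4.99 for Ptprz1 to 4.72 for Vcan. In this order Sox10 and Olig2 overlapped over their libraries, as did Sox6 and Pdgfra, and each neighbouring pair from Cspg4 to Vcan. The upper tier holds the lineage factors shared with mature cells together with Gpr17, and the lower tier the genes of the precursor. The peak ranked for Sox6 lies at an internal start site. For Pdgfra the start site behind the ranked peak is 3915 bp from the nearest RefSeq start. In NeuN+ nuclei the highest such level was 10.6 for Olig1, and 5 of the 10 genes had no start-site peak. In microglia it was 20.4 for Pdgfra, followed by 17.7 for Olig1 with overlapping libraries, and again 5 genes had none.

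**Figure D2:**
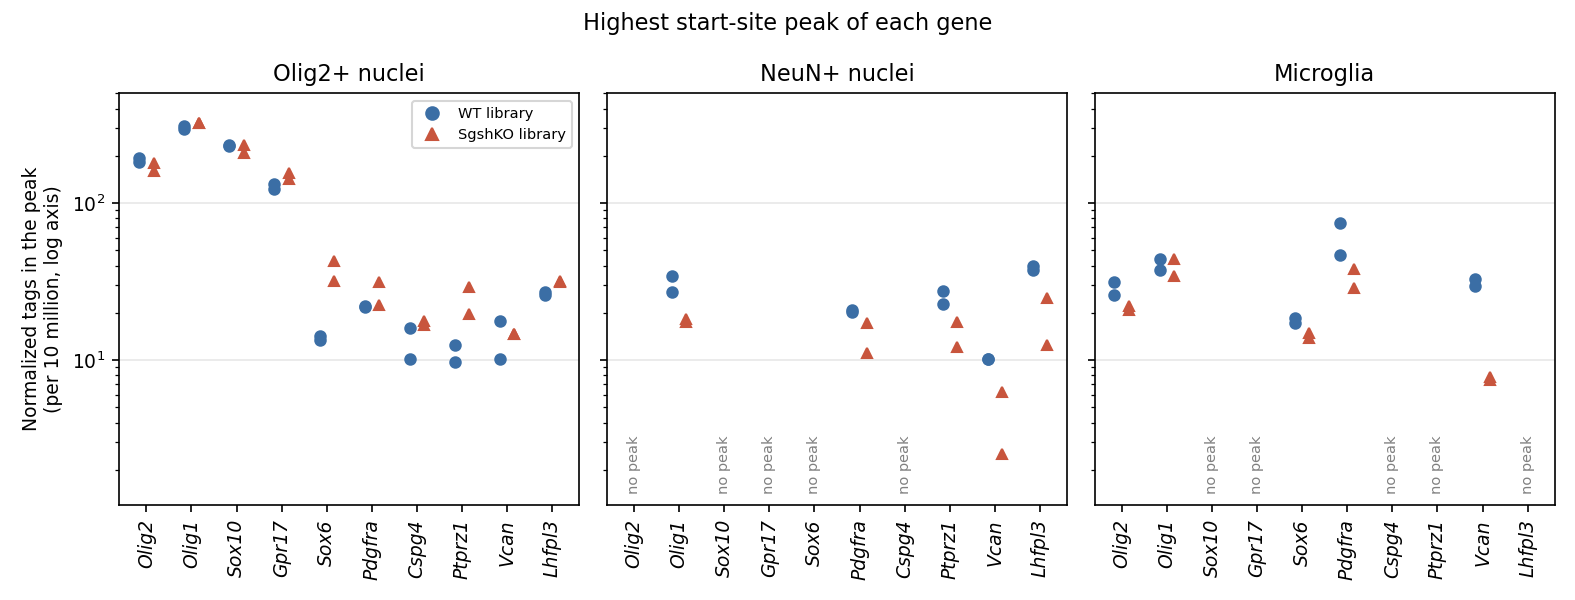
Normalized tags (log axis) in the strongest start-site peak of each gene in the 3 sorts, with circles for the 2 WT libraries and triangles for the 2 SgshKO libraries. In Olig2+ nuclei the triangles of Sox6 and Ptprz1 lie above their circles and were called, in NeuN+ nuclei the triangles of all 5 genes lie below, and in microglia those of Vcan lie below at 7.79 and 7.43 against 32.8 and 29.7.

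Sox6 held the 4 smallest adjusted p-values of the 193 peaks in Olig2+ nuclei. Summed over its 9 peaks, the signal was 161 and 203 tags in WT and 325 and 348 in SgshKO. Its strongest peak, in intron 2 at chr7:115866174-115866433 (-20163 bp from the nearest start site; negative distances are upstream), had 47.2 and 59.3 tags in WT and 132 and 146 in SgshKO. The group means were 53.3 ± 8.57 and 139 ± 9.93 (SD, n = 2), a log2 change of 1.38 ± 0.14 (SE; limma adjusted p = 2.65e-08). It was called in every alternative and leave-one-out fit run. The start-site peak at -102 bp, over the Sox6 sequence printed above, rose from 7.26 and 13.3 tags to 34.4 and 33.2, a log2 change of 1.68 ± 0.27 (adjusted p = 4.99e-05). Its neighbour at -727 bp went from 13.5 and 14.3 to 32.0 and 42.5 (log2 change 1.35, adjusted p = 0.000157). Both lie at an internal start site of the gene. Another region, in intron 5 at 132261 bp, had 16.6 and 21.5 tags in WT and 53.5 and 41.9 in SgshKO (log2 change 1.28). At all 4 peaks the genotypes were separate, and DESeq2 and edgeR on recovered reads also called all 4. The remaining 5 Sox6 peaks were not called, with log2 changes from -0.38 to 0.24, and the upstream peak at -1632 bp had 28.01 and 30.68 tags in WT against 21.5 and 23.3 in SgshKO.

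**Figure D3:**
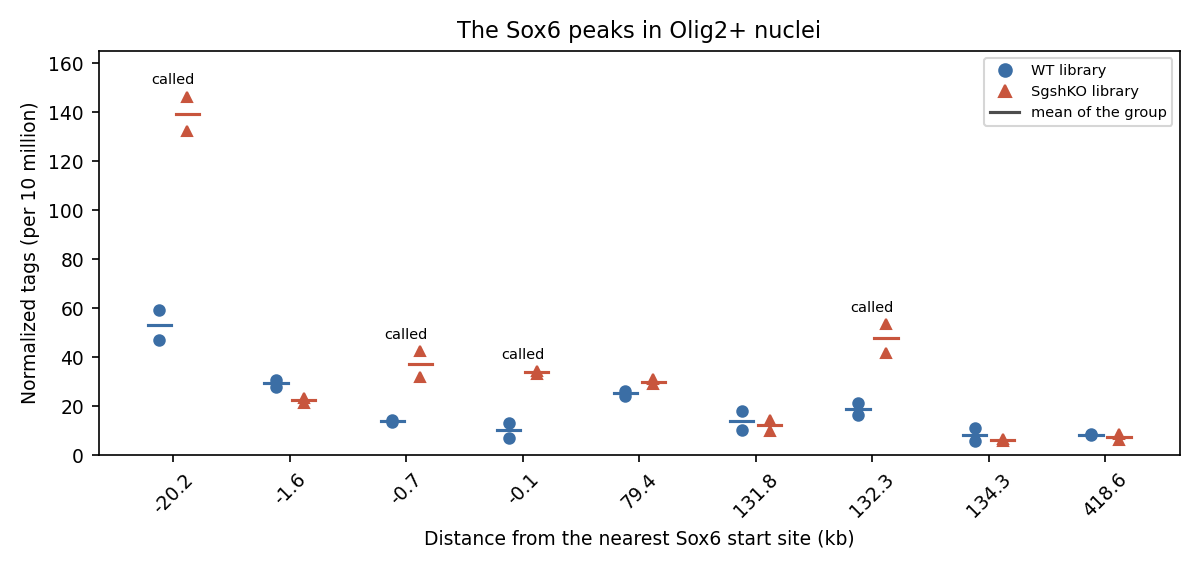
Normalized tags of the 9 Sox6 peaks in Olig2+ nuclei, ordered by distance from the nearest Sox6 start site; circles are WT and triangles SgshKO libraries, and bars the group means. The 4 peaks marked as called, at -20.2, -0.7, -0.1 and 132.3 kb, are separate between the genotypes, with means of 53.3 and 139 tags at the strongest.

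The Olig1 and Olig2 genes lie side by side on chromosome 16, with 49 and 38 peaks. At their start sites no change passed the test. The Olig1 peak at -105 bp, the strongest of all 193, had 309.7 and 297.6 tags in WT and 325 and 324 in SgshKO (log2 change 0.10 ± 0.07). The Olig2 peak at -187 bp, over the sequence printed above, had 194.5 and 183.6 against 180.8 and 160.9 (log2 change -0.15 ± 0.10). The Olig1 groups were separate with SgshKO higher, and the Olig2 groups separate with SgshKO lower, both by less than the test requires.

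Around Olig2, 7 distal peaks were higher and 1 lower of 35 (20% and 2.86%), against 6.7% and 13% of all distal peaks. The peak at -3527 bp, chr16:91221915-91222131, had 3.63 and 1.53 tags in WT and 12.9 and 15.3 in SgshKO, which is 7 and 3 reads against 21 and 23. Its log2 change of 2.14 ± 0.38 (limma adjusted p = 0.000166) was the largest of the 256 peaks. Far upstream, the peak at -30892 bp had 1.56 and 2.56 tags in WT and 8.61 and 7.31 in SgshKO (log2 change 1.57). It was the weakest of the 193 peaks and rested on 3 and 5 reads in WT against 14 and 11 in SgshKO. The stronger peaks at -34201 and -33463 bp had log2 changes of 0.58 and 0.66. The strongest distal Olig2 peak, at -32640 bp in the same stretch, had 115 and 104 tags in WT and 117 and 142 in SgshKO and was not called (log2 change 0.23). The single decrease, at 4584 bp, was from 32.2 and 28.1 to 19.7 and 17.9 tags (log2 change -0.65). It was not called after quantile normalization or median-of-ratios scaling, by edgeR or by DESeq2.

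Around Olig1, 5 distal peaks were higher and 1 lower of 46 (10.9% and 2.17%), against 6.7% and 13% of all distal peaks. The strong peak at 10949 bp had 212 and 187 tags in WT and 238 and 255 in SgshKO, a log2 change of 0.31 ± 0.09 (limma adjusted p = 0.0163). It was the only call outside Sox6 that DESeq2 also made in this table. The largest increase, at 17247 bp, rested on few reads, 5 and 7 in WT and 14 and 15 in SgshKO (log2 change 1.34). The decrease at 44543 bp was from 55.0 and 60.3 to 40.0 and 37.2 tags (log2 change -0.57). The strongest distal peak, at 35954 bp, had 214 and 213 tags in WT and 232 and 256 in SgshKO and was not called (log2 change 0.19), although the genotypes were separate.

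**Figure D4:**
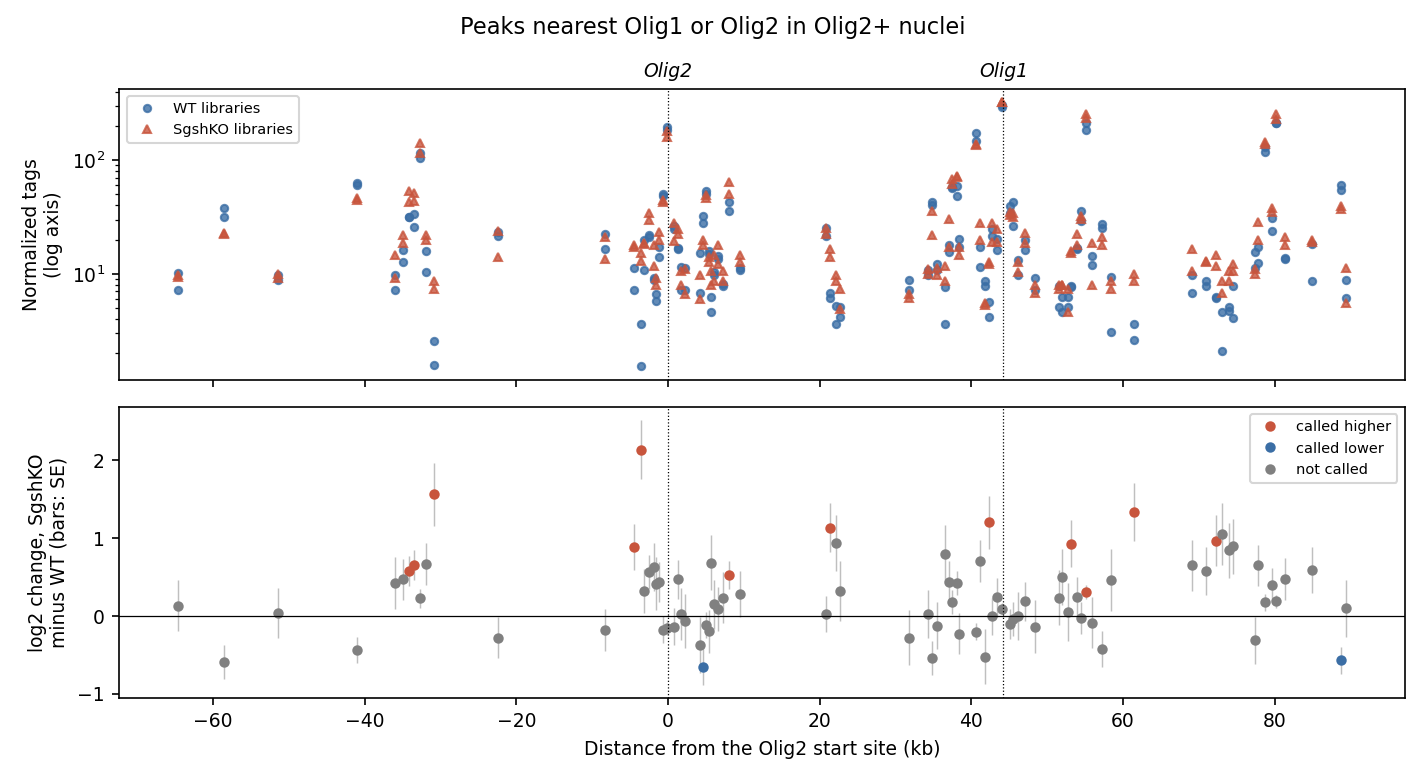
Peaks nearest to Olig1 or Olig2 in Olig2+ nuclei by distance from the Olig2 start site in kb; the upper panel gives normalized tags (log axis) in each library, the lower panel the log2 change with its standard error, and dotted lines mark both start sites. Called increases (12) are spread over the field among uncalled peaks, the largest being 2.14 at -3527 bp, and the start sites lie near 0.

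Sox10, which drives myelin genes with MYRF, had no call. Its start-site peak at -92 bp had 236 and 232 tags in WT and 235 and 209 in SgshKO, so the genotypes overlapped (log2 change -0.08 ± 0.09). The strongest distal peak, at 11534 bp, had 156 and 167 against 148 and 125 (log2 change -0.25 ± 0.11, adjusted p = 0.107), with SgshKO lower. Over the 21 peaks the median log2 change was -0.08 and 10 were positive. With 2 libraries a group this does not show that Sox10 was unaffected.

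Among the receptors and surface proteins, Ptprz1 had the most calls for its number of peaks. Its start-site peak at -29 bp, over the sequence printed above, had 12.4 and 9.72 tags in WT and 19.7 and 29.3 in SgshKO (log2 change 1.06 ± 0.28, limma adjusted p = 0.00734). Of its 5 distal peaks, all intergenic and upstream, 3 were higher, against 6.7% of all distal peaks. The strongest, at -81027 bp, had 61.2 and 58.8 tags in WT and 68.9 and 105 in SgshKO (log2 change 0.50 ± 0.16), and the largest change was 1.15 at -41654 bp. The second SgshKO library was higher than the first at -29, -81027 and -41654 bp. Without it, or without the second WT library, the start-site peak was not called, nor was it by DESeq2 (adjusted p = 0.0763). The change at -81027 bp was 0.20 without the second SgshKO library (limma adjusted p = 0.498) and was not called without either WT library or by DESeq2.

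Cspg4 had 3 peaks higher and 1 lower of 34 (8.82% and 2.94%), against 8.17% and 11.7% of all peaks, so its share of increases was near that of the table. Its start-site peak at -119 bp had 16.1 and 10.2 tags in WT and 17.8 and 16.6 in SgshKO and was not called (log2 change 0.40 ± 0.28). The strongest peak, in intron 1 at 16626 bp, had 116 and 117 against 130.3 and 135.6 (log2 change 0.19 ± 0.11), separate but not called. The increases, at 12882, 21866 and 23416 bp within the gene, had log2 changes of 1.02, 0.62 and 1.15. The decrease, in intron 3 at 24795 bp, was from 38.9 and 42.4 to 30.7 and 23.9 tags (log2 change -0.57, limma adjusted p = 0.0479). It was not called under any other scaling, with a pseudocount of 0.5, by edgeR or by DESeq2.

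Pdgfra, the receptor for the main mitogen of precursors, had 5 peaks. Its strongest start-site peak, in intron 1 at 195 bp, had 21.8 and 21.99 tags in WT and 31.4 and 22.6 in SgshKO and was not called (log2 change 0.27 ± 0.23). The start site behind that distance lies 3915 bp downstream of the nearest RefSeq start, so by RefSeq the peak is inside the gene. The same holds for the strongest Pdgfra start-site peak in NeuN+ nuclei and in microglia. The distal peak in intron 2 at 7325 bp had 45.6 and 46.0 against 40.0 and 53.2, so the genotypes overlapped. The only call was a decrease at 814 bp on 10 and 21 reads in WT against 3 and 6 in SgshKO (log2 change -1.18 ± 0.42, adjusted p = 0.0439), which was not called after quantile normalization (adjusted p = 0.150).

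Gpr17, the marker of committed precursors, had 1 call among 24 peaks, where 19.8% of all Olig2+ peaks were called. Its strongest peak, in the 3′ UTR at 2921 bp, had 202 and 192 tags in WT and 231 and 239 in SgshKO (log2 change 0.25 ± 0.09, limma adjusted p = 0.0413; 0.0801 after quantile normalization), and it was not called when any 1 library was left out. The start-site peak at -564 bp had 123 and 133 against 143 and 155, separate but not called (log2 change 0.21). At 13 of the 24 peaks both SgshKO libraries were the higher (54.2%, against 26.4% of all peaks), and the median log2 change was 0.27.

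The matrix gene Vcan had 1 decrease among 5 peaks, where 11.7% of all Olig2+ peaks were lower. In intron 6, at 39945 bp, the signal was 13.0 and 15.3 tags in WT and 6.76 and 4.65 in SgshKO (log2 change -1.19 ± 0.33, limma adjusted p = 0.0114). Its start-site peak at 68 bp had 17.6 and 10.2 against 14.8 and 14.6, and the strongest distal peak, in intron 1 at 2050 bp, 33.7 and 28.6 against 40.0 and 25.9, both overlapping. Lhfpl3, which encodes a tetraspan membrane protein enriched in precursors, had an intergenic peak at -75700 bp with 4.15 and 2.05 tags in WT and 11.1 and 9.97 in SgshKO (log2 change 1.54 ± 0.38, adjusted p = 0.00485), on 8 and 4 reads against 18 and 15. At its start-site peak, over the sequence printed above, the values were 27.0 and 26.1 against 31.4 and 31.9, separate but not called (log2 change 0.25).

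Other genes of the lineage were counted in the same table. Of 319 peaks nearest to 18 further lineage regulators, 14 were higher and 25 lower, with a median log2 change of -0.13. For 17 precursor surface, matrix and ligand genes the counts were 15 higher and 34 lower of 215 (median -0.16), and for 9 genes of committed precursors 6 higher and 26 lower of 144 (median -0.26). As shares these were 4.39% higher and 7.84% lower for the regulators, 6.98% and 15.8% for the surface list and 4.17% and 18.1% for the committed list, against 8.17% and 11.7% of all peaks. The peaks with the smallest p were, for the regulators, Nkx6-2 at -33237 bp (log2 change -0.67) and Hes1, a Notch target, at -1208 bp (1.27). They were Xylt1 at 114166 bp (0.80) and Dscam at -26079 bp (1.60) for the surface and matrix list. Both in the committed list were nearest to Tns3, one at 207793 bp lower (-0.86) and one at 516620 bp higher (1.68).

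In NeuN+ nuclei the start sites of these genes were lower in SgshKO. Of 34 peaks, 4 were higher and 10 lower, where 29.8% of all peaks were called, 10.2% higher and 19.6% lower. All 5 start-site peaks had both SgshKO libraries below both WT libraries (70.9% of all start-site peaks), and 4 were called, all lower. Of all NeuN+ start-site peaks, 46.6% were called, 44.9% lower and 1.74% higher, and 6.9% had both SgshKO libraries the higher. Over all 34 member peaks the genotypes were separate at 7 with SgshKO higher (24.1% of all peaks) and at 20 with SgshKO lower (44.4%). The start site of Lhfpl3 had 39.7 and 37.3 tags in WT and 12.6 and 24.8 in SgshKO (log2 change -1.08 ± 0.26, limma adjusted p = 0.00508). For Olig1 the values were 34.6 and 27.1 against 17.4 and 18.4 (log2 change -0.74), for Ptprz1 22.7 and 27.7 against 17.4 and 12.1 (-0.75), and for Vcan 10.2 and 10.2 against 6.28 and 2.54 (-1.14). Pdgfra, with 20.96 and 20.33 against 11.2 and 17.1, was not called (-0.54). These changes stand beside a median of -0.53 over all start-site peaks of the table. In the same libraries the start-site peaks of the neuronal markers were lower at 14 of 29 and higher at 0, with sums of 1256 and 1158 tags in WT and 688 and 682.5 in SgshKO. Those of the mature oligodendrocyte markers, 6 of 10 of which had no start-site peak here, summed to 157 and 138 against 76.1 and 78.1. The part of these in the result was not tested.

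The balance of calls moved with the scaling in this sort. The median log2 change over all NeuN+ peaks was -0.23 with the deposited totals, 0.05 when libraries were scaled to their tags in peaks, and -0.08 after quantile normalization, and the share of tags in peaks was lower in both SgshKO libraries, as given above. The member calls became 7 higher and 3 lower with scaling to tags in peaks (17.6% and 8.86% of all peaks), with median-of-ratios scaling (15.0% and 11.0%) and with edgeR (15.8% and 11.5%), each of which called 1 start-site peak, that of Lhfpl3. After quantile normalization they were 3 and 3 (9.62% and 5.9%), and none of the start-site peaks was called. Relative to the median over all peaks of the table (-0.23), the 4 called start sites changed by -0.85 (Lhfpl3), -0.51 (Olig1), -0.51 (Ptprz1) and -0.91 (Vcan). Start-site peaks alone had a median of -0.53, and relative to that the decreases were smaller. Leaving out the first or the second WT library left 4 or 3 member calls, and 11278 or 14482 of 32105 calls over the whole table. Without either SgshKO library limma called none of the 34, with 11 at an unadjusted p under 0.05 in each case, and 0 of all 107627 peaks. DESeq2 called none of the 34, with 6 unadjusted, and 4.55% of all peaks.

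Distal peaks in NeuN+ nuclei went both ways, 4 higher and 6 lower of 29, against 12.6% each way over all distal peaks. Sox6, which interneurons of the cortex also use, held both directions. In intron 7 at 176370 bp it had 5.10 and 4.52 tags in WT and 13.3 and 12.1 in SgshKO (log2 change 1.23 ± 0.32, limma adjusted p = 0.00886), and in intron 1 at 28702 bp 13.6 and 9.6 against 22.3 and 23.5 (0.94). Its peak at -1655 bp fell from 35.7 and 31.1 to 15.4 and 12.1 (-1.23 ± 0.23, adjusted p = 0.000979), and this call was also made after quantile normalization (adjusted p = 0.0198). Ptprz1 rose in intron 1 at 12653 bp (0.91), and a peak nearest to Vcan but within intron 7 of Xrcc4 rose at -136524 bp (0.87). Decreases were measured in Cspg4 intron 8 at 28969 bp (-1.28), in Vcan intron 1 at 3062 and 2085 bp (-1.07 and -0.76) and upstream of Olig2 at -58472 bp (-0.81). Under scaling to tags in peaks, median-of-ratios scaling and edgeR, the Cspg4 decrease was called, and those at Vcan and Olig2 were not. The increases at Ptprz1 12653 bp and Vcan -136524 bp were not called after quantile normalization. With scaling to tags in peaks, 7 of the 29 distal peaks were higher and 2 lower (17.6% and 8.86% of all peaks).

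In microglia 2 of 29 peaks were called, both nearest to Vcan, where 7.37% of all peaks were called, 5.05% higher and 2.33% lower. One was among 8 start-site peaks (9.8% of all start-site peaks, 8.59% higher and 1.2% lower) and one among 21 distal peaks (6.52%, 3.8% higher and 2.72% lower). The peak in the 5′ UTR at 322 bp, chr13:89742084-89742297, had 32.8 and 29.7 tags in WT and 7.79 and 7.43 in SgshKO (log2 change -1.90 ± 0.45, limma adjusted p = 0.00643). The peak at -146818 bp, in intron 7 of Xrcc4 at chr13:89889214-89889447, rose from 70.9 and 61.8 to 162 and 156 tags (log2 change 1.25 ± 0.30, adjusted p = 0.00712). Both were separate between the genotypes by more than the spread within either, and DESeq2 and edgeR also called both. Without either WT library neither was called by limma, with 3 member peaks at an unadjusted p under 0.05 in each case. Over the whole table the calls fell from 6765 to 1159 or 557 without the first or the second WT library. Without the first or the second SgshKO library they rose to 18850 or 16531, and the member calls to 8 (1 higher, 7 lower) or 6 (3 higher, 3 lower).

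No other member start site was called in microglia. All 8 start-site changes were negative, and in 6 both SgshKO libraries lay below both WT libraries (25.1% of all start-site peaks, with 32.7% the other way). The strongest, Pdgfra at 141 bp, had 74.3 and 46.6 tags in WT and 38.1 and 28.8 in SgshKO (log2 change -0.81 ± 0.37, adjusted p = 0.183). Olig2 at -34 bp had 25.9 and 31.3 against 20.8 and 22.3 (-0.39), Sox6 at -797 bp 17.3 and 18.6 against 13.8 and 14.8 (-0.30), and Olig1 at -121 bp 44.1 and 37.3 against 44.1 and 34.4 (-0.06). The change at the Olig1 start site was near 0 and changed sign after quantile normalization (0.0072). Peaks of the microglial markers were lower at 25 and higher at 1 of 157 in the same libraries, and the part of this in the Vcan result was not tested.

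The same lists were counted in the other sorts. In NeuN+ nuclei 11 of 146 regulator peaks were higher and 41 lower, with 19 and 26 of 180 for the surface and matrix list and 8 and 15 of 82 for the committed list. As shares these were 7.53% and 28.1%, 10.6% and 14.4%, and 9.76% and 18.3%. Of all NeuN+ peaks, 10.2% were higher and 19.6% lower. The smallest p values there belonged to Sox11 at -369 bp (log2 change -1.47), Tcf7l2 at 45556 bp (2.44), Megf11 at 10094 bp (1.82), Xylt1 at -273931 bp (1.22), Fyn at -107 bp (-0.92) and Itpr2 at 219986 bp (1.03). In microglia the counts were 1 higher and 2 lower of 102, 12 and 4 of 126, and 2 and 4 of 167. As shares these were 0.98% and 1.96%, 9.52% and 3.17%, and 1.2% and 2.4%, against 5.05% and 2.33% of all microglia peaks. These lists were led in microglia by Sox11 at 39369 bp (1.79), Hes1 at 10769 bp (-2.11), Sulf2 at 39147 bp (2.72), Xylt1 at 114100 bp (2.32), Enpp6 at -118486 bp (2.84) and Rras2 at 97034 bp (-2.80).

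Whether the genotype effect differed between the nuclei sorts was tested at the 20 member peaks that overlapped one-to-one, by at least 50% of each peak, in both tables. At 9 of the 20 the effect differed (limma interaction over 8 libraries, adjusted over 29576 such peaks), in every case more positive in Olig2+ nuclei. Of all shared peaks 35.0% differed, 31.7% in that direction, and the median difference was 0.41 over all of them and 0.81 over the members. That direction held for 49.3% of all shared start-site peaks and 15.0% of all shared distal peaks. The start sites of Ptprz1, Olig1, Lhfpl3 and Vcan were among the 9. After quantile normalization the median over all shared peaks was 0.01, 18.3% were called (9.34% more positive in Olig2+ and 8.93% in NeuN+ nuclei) and 3 member peaks passed, 2 of them more positive in Olig2+ nuclei. Both of these, the Ptprz1 start site and the Vcan peak at 3103 bp, were among the 9. The other, Cspg4 at 26581 bp, was more positive in NeuN+ nuclei, by -1.21 (adjusted p = 0.0367 by limma), and was not called with the deposited totals (-0.75).

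The Ptprz1 start site moved in opposite directions. In Olig2+ nuclei it had 12.4 and 9.72 tags in WT and 19.7 and 29.3 in SgshKO, and in NeuN+ nuclei 22.7 and 27.7 against 17.4 and 12.1. The NeuN+ decrease on its own was not called under any other scaling, by edgeR or by DESeq2. Its log2 change of -0.75 stands beside a median of -0.53 over all NeuN+ start-site peaks. The genotypes were separate in both sorts, and the difference of the log2 changes was 1.80 ± 0.39 (limma adjusted p = 0.000429; 0.00856 after quantile normalization). At Vcan 3103 bp the values were 18.15 and 18.92 in WT against 28.9 and 24.59 in SgshKO in Olig2+ nuclei, and 11.9 and 11.3 against 4.89 and 5.08 in NeuN+ nuclei, a difference of 1.58 ± 0.40. The start sites of Lhfpl3 (1.32) and Olig1 (0.84) and the Cspg4 peak at 29074 bp (1.10) differed with the deposited totals and did not pass after quantile normalization. None of the Sox6 peaks that rose in Olig2+ nuclei overlapped a NeuN+ peak, so their difference could not be tested.

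**Figure D5:**
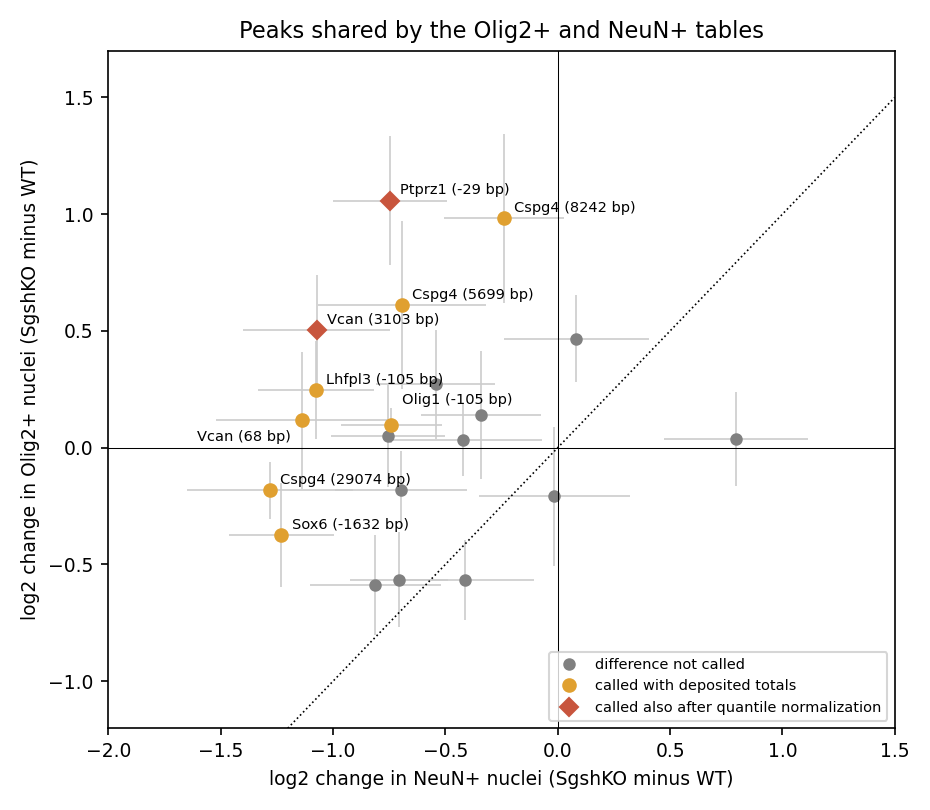
Log2 change in Olig2+ nuclei against that in NeuN+ nuclei at the 20 member peaks shared by both tables, with standard errors; the dotted line marks equal change. Points called with the deposited totals (9) lie above the line, and diamonds mark the 2 also called after quantile normalization, with differences of 1.80 and 1.58.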

How the data were processed

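Peaks and tags per peak came from 1 deposited table per sort, with annotation columns in HOMER format. Per the submitters' processing notes, Bowtie2, HOMER and mm10 were used; no source used here names versions, the peak caller, read shifting or duplicate handling. Coordinates are those of the files. The deposited signal is the tag count of a peak scaled, per the file headers, to 10000000 tags per library; single-end libraries were size-selected, per the labels' protocols. The files' peak score, the authors' own score, was not used. Dividing out the scaling recovered whole reads (100% of values within 0.01 of a whole number; unused columns: 0).

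From these values, log2(normalized tags + 1) was compared within each table with limma 3.58.1 in R 4.3.3 (lmFit, eBayes with trend, two-sided, no covariate, no filter), with Benjamini-Hochberg adjustment over the whole table and calls under 0.05. Changes are on that log2 scale, which understates those of low peaks. The difference between sorts was an interaction term over 8 libraries. The fit of each table was repeated with another pseudocount (0.5 or 5), without the weakest 25% of peaks, under 3 other scalings, with the recovered reads in edgeR 4.0.16 (TMM) or DESeq2 1.42.0, at a threshold of 0.01, with a replicate block and without each library. The interaction was repeated with both pseudocounts, 2 other scalings, edgeR, the block, an overlap of 1 bp and without each library. DESeq2 gave no adjusted p at many weak peaks, which then count neither as called nor as lost. On simulated data, 43%, 23% and 7% of 2-fold and 80%, 70% and 66% of 4-fold changes were recovered in the Olig2+, NeuN+ and microglia tables. The changes were simulated at a small set of peaks, none with few reads, and every other peak was left unchanged. Far more peaks were called in the real tables, so these percentages are not the power of the reported tests.

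The peaks named were, by a fixed rule, each gene's strongest start-site peak in each table, its strongest distal peak in Olig2+ nuclei, the 5 largest called distal increases and decreases of a table (at most 2 per gene), and the 5 smallest p between sorts; further called peaks were named after their values were seen. The members and lists were chosen with earlier results of these data known. Of 24 start-site peaks matched to RefSeq starts on GRCm38.p6, the implied start lay within 10 bp for 16. The others were at Pdgfra, 3915 bp from the nearest RefSeq start, and at Lhfpl3, 139 bp from it.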

Additional observations from a re-analysis of the deposited data

Results flagged for a closer look

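At 9 peaks shared by the Olig2+ and NeuN+ tables the genotype effect differed between the sorts by the interaction test, with the difference given as the log2 change in Olig2+ minus that in NeuN+ nuclei. It was 1.80 at the Ptprz1 start site (-29 bp), 1.58 at Vcan 3103 bp, 1.32 at the Lhfpl3 start site (-105 bp) and 0.84 at the Olig1 start site (-105 bp). At Cspg4 it was 1.10, 1.22 and 1.31 at 29074, 8242 and 5699 bp. At Vcan 68 bp it was 1.26 and at Sox6 -1632 bp 0.86. The median over all shared peaks was 0.41, and after quantile normalization 2 of the 9 passed, those at the Ptprz1 start site and at Vcan 3103 bp.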

How the results depend on the processing

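All 33 called peaks among the 52 named kept their sign in each alternative run, and 5 kept the call in each that gave an adjusted p. Those were Sox6 at -20163 and -727 bp and Olig2 at -3527 bp in Olig2+ nuclei, and the differences at Ptprz1 -29 bp and Vcan 3103 bp. DESeq2 called 5, 0 and 2 member peaks in Olig2+ nuclei, NeuN+ nuclei and microglia against 30, 14 and 2 with limma, and a threshold of 0.01 left 8 in Olig2+ and 3 in NeuN+ nuclei. Scaling to tags in peaks gave 5 calls of 29 in microglia (15.8% of all peaks). It gave 3 differences of 20 between sorts (6151 of all 29576 shared peaks). Quantile normalization gave 6 calls of 34 in NeuN+ nuclei (15.5% of all peaks) and 3 differences (18.3% of all shared peaks). With edgeR there were 4 differences (7043 of all 29576 shared peaks). Leaving out 1 library gave 8 to 27 calls in Olig2+ nuclei, 0 to 4 in NeuN+ nuclei, 0 to 8 in microglia and 5 to 9 differences, the fewest of these without the first Olig2+ SgshKO or the second NeuN+ WT library (5 each); the lone library left is assumed to vary like the others. The cause of these changes was not tested. Among uncalled peaks the sign depended on 1 library for Pdgfra at 7325 bp (-0.19 to 0.21), Sox10 at -92 bp (-0.16 to 0.0086), Vcan at 68 bp (-0.25 to 0.48) and Vcan at 2050 bp (-0.25 to 0.35) in Olig2+ nuclei and for Olig1 at -121 bp in microglia (-0.23 to 0.12, and 0.0072 after quantile normalization). Over peaks, same-numbered libraries did not deviate together (correlations of 0.00069, 0.0036 and 0.042 in Olig2+ nuclei, NeuN+ nuclei and microglia), so the numbers were not taken to pair them. These correlations leave out a shift common to all peaks. In microglia the first library had the larger share of tags in peaks in both genotypes, so pairing is not excluded. With a replicate block 36, 18 and 3 member peaks and 8 differences were called. Whole-table calls went from 16370, 32105 and 6765 to 17632, 35764 and 14489, and differences over all shared peaks from 10361 to 10755. Median reads per peak were 17 to 39. With 2 libraries a group, an uncalled peak does not show an absence of change. Recovery of simulated 2-fold changes was 23% and 7% in the NeuN+ and microglia tables. That simulation changed far fewer peaks than were called, so it does not give the power of these tests.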
